A study of Drosophila melanogaster with 6 samples.

Results

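Thioester proteins (Teps) and glucan-binding proteins (GNBPs, named for the Gram-negative bacteria they were first found to bind) are recognition molecules of the insect immune system. The genes considered here were Tep1, Tep2, Tep3, Tep4, GNBP1, GNBP2 and GNBP3 of Drosophila melanogaster, followed in the oviduct, the duct through which eggs leave the ovary. They were chosen by name, and a gene counted as measured where the platform annotation gave a probe set to it and to no other gene. This held for 4 of the 7 genes, namely Tep3, Tep4, GNBP2 and GNBP3, each with 1 probe set, out of 10844 genes with a probe set in all. Tep1, Tep2 and GNBP1 had no probe set under that rule and were not analysed here as named genes.

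Affymetrix arrays were hybridised with RNA of oviducts from mated females, dissected 3 h after mating ended, and of oviducts from unmated females dissected at parallel times. All females were 3 days old, and each group had 3 arrays, which the series describes as biological repeats. The labels give no strain or genotype. They report that tracts of 400 to 500 females were pooled, but not whether each array had a pool of its own, and if arrays shared a pool the p-values would measure only technical spread. The study's title concerns immune and developmental changes that follow mating, and the comparison of mated with unmated oviducts addresses which transcripts differ.

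Teps carry a reactive thioester bond and belong to the family of vertebrate complement C3 and alpha-2-macroglobulin. In the mosquito Anopheles gambiae, TEP1 binds microbes and promotes their uptake and killing, and in cultured fly cells Tep2 and Tep3 have been linked to uptake of bacteria. GNBP3 senses fungal beta-1,3-glucan and GNBP1 acts with the peptidoglycan recognition protein PGRP-SA on Gram-positive bacteria, both upstream of the protease cascade that cleaves Spaetzle, the ligand of the receptor Toll. Fly Teps are known from haemocytes (blood cells) and fat body, the liver-like organ of the fly, as well as from barrier tissues.

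Tep3 and GNBP2 had higher mean log2 intensities in mated oviducts, by 0.98 ± 0.57 and 1.11 ± 0.57 (SE, n = 3 per group). Tep4 differed by 0.12 ± 0.29 and GNBP3 by -0.78 ± 0.63 on the same scale. None of these 4 differences passed the test, with limma adjusted p from 0.793 to 0.967. The adjusted threshold of 0.05 was passed by 0% of the 13966 probe sets as higher and by 0% as lower, with a lowest adjusted p of 0.477. At an unadjusted p of 0.05, 0 of the 4 genes passed, against 1.04% of all probe sets as higher and 5.56% as lower. The mated and unmated arrays overlapped for each of the 4 genes, while they did not overlap for 10.9% of all probe sets.

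Of the 4 genes, 3 had a higher mean in mated oviducts (2 after cyclic loess normalization), where 37.3% of all probe sets did with the deposited scaling. Their median log2 difference was 0.55, beside -0.16 for all genes, and it was 0.29 without mated replicate 3. That all-gene shift depended on the scaling, being 0.11 after each array was centred on its median. It also depended on the arrays used, being 0.01 without unmated arrays 1 and 2. These 2 arrays stood apart from the other 4. Their median intensities were 86.2 and 86.0, against 60.6 to 66.5 on the mated arrays and 62.4 on unmated array 3. Against unmated array 3 alone, 3 of the 4 genes were again higher, with a median log2 difference of 0.55. The single differences in that fit were 1.20 for Tep3, 0.04 for Tep4, 1.05 for GNBP2 and -0.25 for GNBP3.

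**Figure D1:**
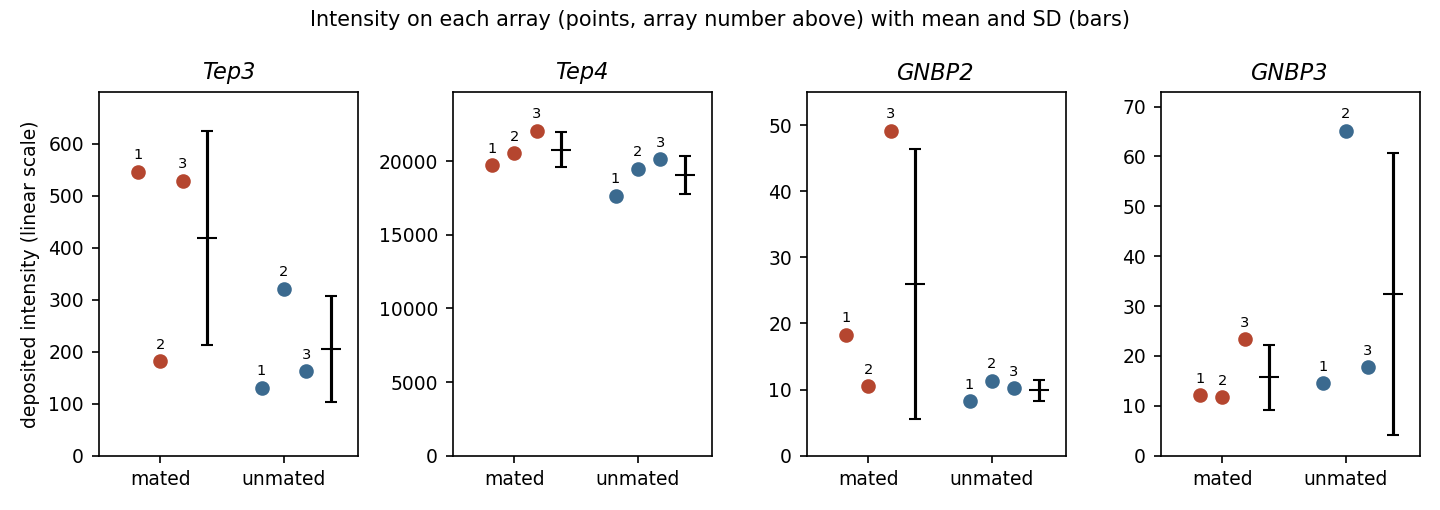
Deposited intensity (linear axis from 0) of Tep3, Tep4, GNBP2 and GNBP3 on the 3 mated arrays (left, red) and the 3 unmated arrays (right, blue), with array numbers above the points and the mean with its SD as black bars. The groups overlap in each panel: mated array 2 lies at the unmated level for Tep3 and GNBP2, and unmated array 2 alone is high for GNBP3.

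Tep3 had intensities of 546.4, 181.3 and 528.3 on mated arrays 1, 2 and 3, against 130.3, 321.4 and 162.7 on unmated arrays 1, 2 and 3. Mated arrays 1 and 3 lay above every unmated array, and mated array 2 lay below unmated array 2. The means were 419 ± 206 in mated and 205 ± 102 in unmated oviducts (SD, n = 3 each). The fitted ratio of mated to unmated was 1.97, with a 95% interval from 0.782 to 4.98, which takes in a lower level as well as one several times higher. The limma adjusted p was 0.806. An exact permutation test over the 6 arrays (two-sided) gave p = 0.2, where 0.1 is the smallest value that 3 arrays against 3 can give.

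Single arrays moved the Tep3 difference but did not turn its sign. It was 1.50 on the log2 scale without mated replicate 2, the highest of its leave-one-out values, at a limma unadjusted p of 0.0225 and with the adjusted p still above the threshold. Without mated replicate 1 or unmated replicate 1 it was 0.71. The spread of Tep3 within groups, 0.8 log2 units, was larger than that of 91.0% of the 500 probe sets nearest to it in mean level, whose median was 0.388.

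Tep4 gave one of the brightest and steadiest signals on the arrays. In flies Tep4 has been studied for its part in the response to bacterial infection. Its intensities were 19710.2, 20539 and 22040.8 on the mated arrays and 17640.3, 19483.9 and 20106.4 on the unmated arrays. Mated arrays 2 and 3 lay above all unmated arrays, and mated array 1 lay between unmated arrays 2 and 3. The probe set ranked 5, 14 and 4 in intensity among the 13966 on mated arrays 1, 2 and 3, and 9, 3 and 16 on unmated arrays 1, 2 and 3. A rank places the signal on the array and does not compare transcript amounts, because probe sets differ in brightness for the same amount of RNA.

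The Tep4 means were 20763 ± 1181 in mated and 19077 ± 1282 in unmated oviducts (SD, n = 3 each). The fitted ratio was 1.09, with a 95% interval from 0.674 to 1.76 and a limma adjusted p of 0.967, while the exact permutation test gave p = 0.2. The interval is wide for arrays this close together because limma draws each gene's variance towards a common value. After cyclic loess normalization the difference was -0.03 on the log2 scale, against 0.12 with the deposited scaling, so its sign is not fixed by these data.

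The spread of Tep4 within groups was 0.0904 log2 units. It was the smallest among the 78 probe sets with a mean intensity of at least 10000, whose median spread was 0.254. The 500 probe sets nearest in level were mostly dimmer, since Tep4 ranked between 3 and 16 on the arrays. Their median spread was 0.303, and 1.0% of them had a smaller spread than Tep4. Of the 78 bright probe sets, 59 had a higher mean in mated oviducts, with a median log2 difference of 0.07. Whether the brightest signals were compressed near the top of the scanner's range was not tested.

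**Figure D2:**
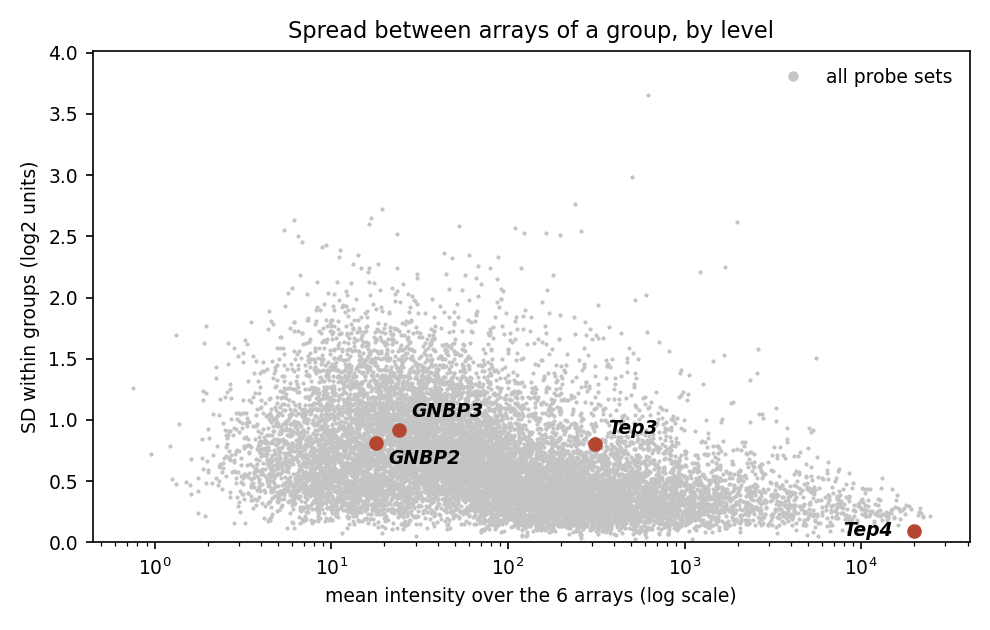
SD between arrays of a group (log2 units, pooled over mated and unmated arrays) against mean intensity over the 6 arrays (log scale) for 13966 probe sets (grey), with the 4 measured genes in red. Tep4 sits at the lower right edge with 0.0904, Tep3 lies in the upper part of the cloud at its level with 0.8, and GNBP2 and GNBP3 lie in the middle of the cloud at low levels.

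GNBP2 and GNBP3 gave dim signals. GNBP2 had intensities of 18.3, 10.5 and 49.1 on mated arrays 1, 2 and 3, against 8.2, 11.3 and 10.2 on the unmated arrays. Only mated arrays 1 and 3 exceeded the unmated values, and mated array 2 lay among them. The means were 26.0 ± 20.4 in mated and 9.9 ± 1.57 in unmated oviducts (SD, n = 3 each). The fitted ratio was 2.15, with a 95% interval from 0.843 to 5.5, a limma adjusted p of 0.793 and an exact permutation p of 0.2.

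GNBP2 rested largely on 1 array. Without mated replicate 3 its log2 difference was 0.50, against 1.11 with all arrays, and with 32 added to each intensity before log2 it was 0.41. On 4 of the 6 arrays the probe set lay under that array's lower quartile, which ran from 14.2 to 23.9 over the arrays. Detection calls were not used here, so that such values cannot be separated from background and the size of the ratio is not exact.

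GNBP3, the fungal glucan sensor, was the only measured gene with a lower mean in mated oviducts. Its intensities were 12.1, 11.7 and 23.3 on mated arrays 1, 2 and 3, against 14.5, 65.1 and 17.7 on the unmated arrays. Unmated array 2 stood alone, and the other 5 arrays lay within 11.7 to 23.3. The means were 15.7 ± 6.58 in mated and 32.4 ± 28.3 in unmated oviducts (SD, n = 3 each). The fitted ratio was 0.582, with a 95% interval from 0.208 to 1.63, a limma adjusted p of 0.87 and an exact permutation p of 0.5. Without unmated replicate 2 the log2 difference was -0.11, and without unmated replicate 1 it was -1.19, against -0.78 with all arrays. GNBP3 lay under the lower quartile on 3 of the 6 arrays.

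**Figure D3:**
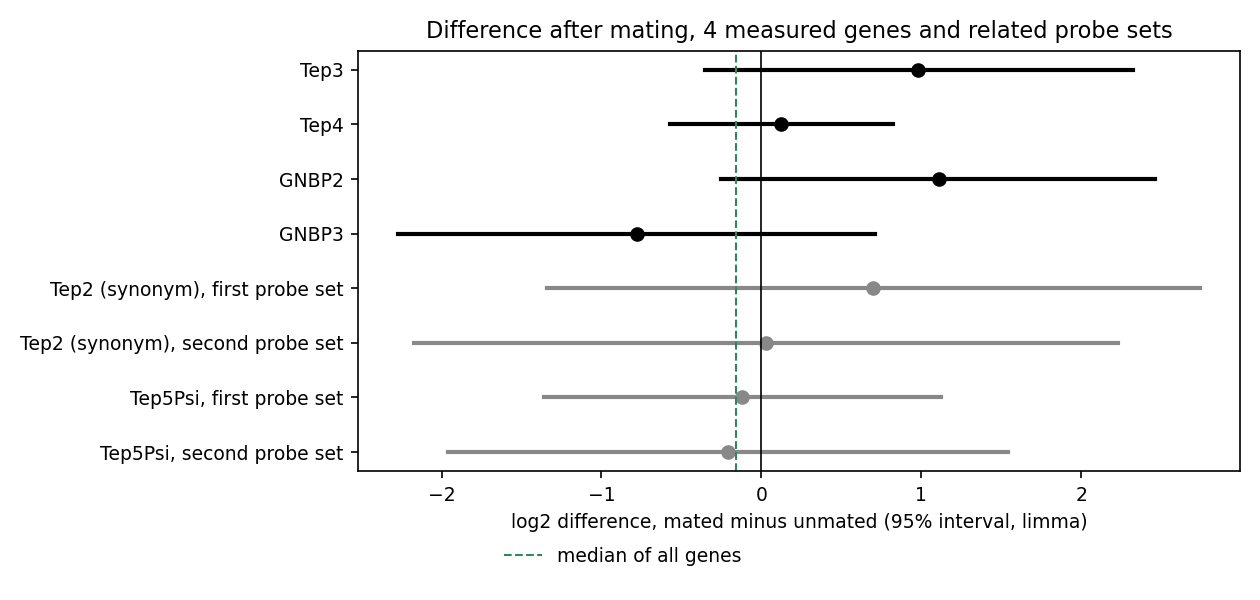
Log2 difference, mated minus unmated, with its 95% limma interval, for the 4 measured genes (black) and for the probe sets tied to Tep2 through a RefSeq synonym and to the pseudogene Tep5Psi (grey). All 8 intervals include 0, and the dashed green line marks the all-gene median of -0.16.

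Tep2, the gene next to Tep3 in the RefSeq gene order, is tied to the array in another way. The identifiers of 2 probe sets that the platform annotation does not list, 145970_at and 145971_at, stand among the RefSeq synonyms of Tep2. They were not counted as Tep2 above, since no probe sequence was used here to check them. The first, 145970_at, had intensities of 567.2, 141.6 and 579.8 on mated arrays 1, 2 and 3, against 67.6, 443.8 and 361.4 on the unmated arrays. As for Tep3, mated arrays 1 and 3 were highest and mated array 2 lay among the unmated arrays.

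The log2 difference of 145970_at was 0.70 ± 0.87 (SE, n = 3 per group), with a limma adjusted p of 0.938. The second probe set, 145971_at, was dim, with 26, 3.6 and 4.1 on the mated arrays and 12.1, 11.9 and 2.5 on the unmated arrays, and its log2 difference was 0.03 ± 0.94. The 2 probe sets did not follow each other, with a Pearson r of 0.0490 over the 6 arrays, whereas 145970_at and Tep3 had an r of 0.832. These correlations share the same 6 arrays and their scaling, and they are given as a description.

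The pseudogene Tep5Psi lies close to Tep4 in the RefSeq gene order. Its brighter probe set had 39.6, 33.8 and 22.6 on the mated arrays, against 67.4, 18.9 and 30.5 on the unmated arrays, a log2 difference of -0.12 ± 0.53. Its second probe set was dimmer, with 5.5, 3 and 5.9 on the mated arrays and 2.1, 4.4 and 16.3 on the unmated arrays. Cross-hybridisation between the related Tep sequences was not tested.

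Among the measured genes, Tep3 and GNBP2 had the most similar profiles over the 6 arrays, with a Pearson r of 0.816 on the log2 scale. The value was 0.762 for Tep4 with GNBP2 and 0.566 for Tep3 with Tep4. GNBP3 had r of 0.231 with Tep3, 0.0676 with Tep4 and 0.0820 with GNBP2. Other genes also reached a high r over these few arrays: 119 of the 5421 brighter genes reached 0.9 with Tep3, 32 with Tep4, and 40 and 16 of 5422 with GNBP2 and GNBP3.

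The genes most like Tep3 were p53, the fly homologue of the tumour suppressor, and GlyRS, which encodes glycyl-tRNA synthetase, with Pearson r of 0.993 and 0.991 over 6 arrays. GlyRS had intensities of 1086.1, 519.2 and 1086.9 on the mated arrays, against 452.1, 748.2 and 559.9 on the unmated arrays. A gene picked for its high r repeats the Tep3 profile by that choice. Nearest to Tep4 were ERp44, named for a chaperone of the endoplasmic reticulum, and QC, which encodes glutaminyl cyclase, with r of 0.985 and 0.979. ERp44 had 3516.1, 3993.3 and 4498.2 on the mated arrays and 2942, 3649.8 and 3921.2 on the unmated arrays. For GNBP2 the nearest genes were CG17734 and pst (r of 0.982 and 0.977), and for GNBP3 they were Sf3a1 and dlt (0.981 and 0.972).

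**Figure D4:**
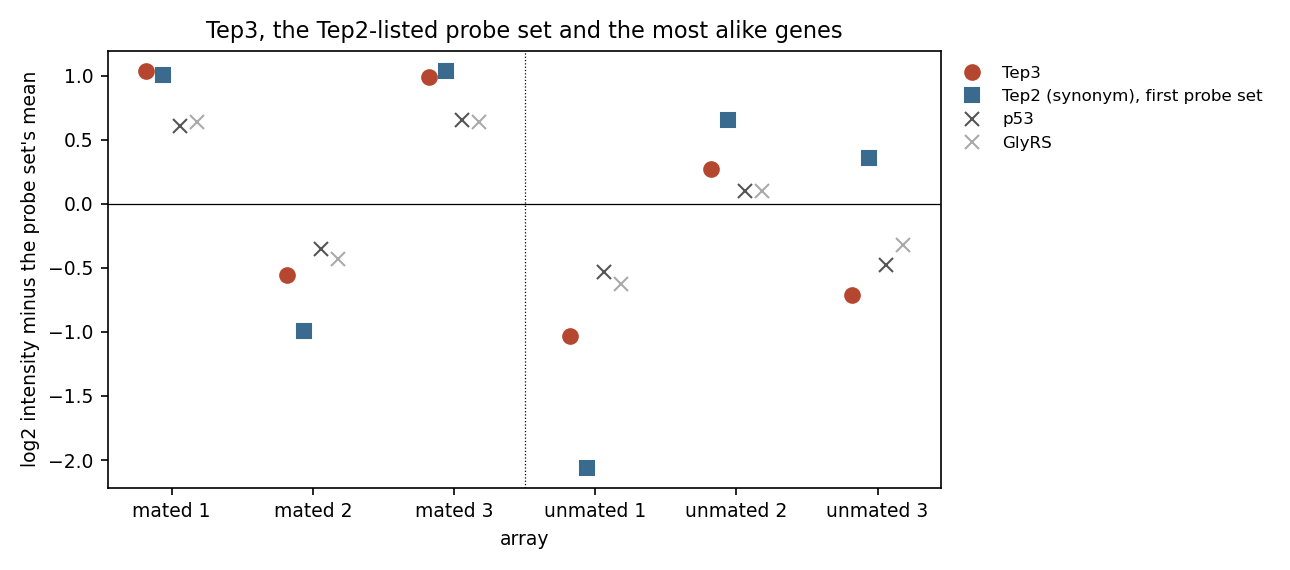
Log2 intensity minus each probe set's mean over the 6 arrays, on the mated arrays (left) and the unmated arrays (right), for Tep3, the probe set 145970_at listed as a Tep2 synonym, and p53 and GlyRS, the genes with the highest r to Tep3. All 4 are high on mated arrays 1 and 3 and low on mated array 2 and unmated array 1, and 145970_at departs from the others on unmated array 3.

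Genes of other recognition and protease steps that, like GNBP3 and GNBP1, feed into Toll were measured in part. Of 11 listed genes of these steps, including the Spaetzle gene itself, 8 had a probe set. The recognition genes PGRP-SA and PGRP-SD and the gene modSP had none. Of the 8, 4 were higher and 4 lower in mated oviducts and 0 passed, with a median log2 difference of -0.04. The counts here and in the lists below take no account of whether a gene activates or restrains a pathway. The serine protease gene psh, which senses microbial proteases, had 168.2, 111.5 and 134.6 on the mated arrays and 74.7, 115.2 and 102.4 on the unmated arrays. Mated arrays 1 and 3 were above all unmated arrays there, as for Tep3. The serine protease homologue gene sphe had a log2 difference of -0.81 ± 0.53, and spirit, a serine protease gene, -0.44 ± 0.36 (SE, n = 3 per group).

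From the receptor Toll to its NF-kappaB factors, 5 of 9 genes were higher, 4 were lower and 0 passed, with a median of 0.01. The adaptor gene Myd88 had 1228.7, 912.4 and 694.8 on the mated arrays and 565.3, 583.4 and 1079.4 on the unmated arrays, with overlap. Log2 differences were 0.28 ± 0.34 for the kinase gene pll and -0.32 ± 0.39 for Pli, which encodes a Pellino ubiquitin ligase (SE, n = 3 per group). Of 3 further glucan-binding-protein-like genes, CG30148 and CG12780 were measured, with log2 differences of -0.55 ± 0.69 and 0.64 ± 0.89. The CG12780 values were dim on 5 of the 6 arrays, with 4.7, 28.9 and 2.2 on the mated and 3.5, 5.9 and 3.8 on the unmated arrays.

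JAK-STAT signalling is known to control Tep1 in fly larvae. Of 10 listed genes of this pathway 7 were measured, 4 higher, 3 lower and 0 past the test, with a median log2 difference of 0.02. The transcription factor gene Stat92E had 341.4, 615.7 and 759.7 on the mated arrays, against 440, 561.8 and 338.8 on the unmated arrays. Su(var)2-10, which encodes the inhibitor PIAS, had a log2 difference of -0.79 ± 0.47 (SE, n = 3 per group). The ligand gene upd2 was under the array's lower quartile on 5 of the 6 arrays, with 4.2, 7.9 and 3.2 on the mated and 6.2, 5.5 and 17.3 on the unmated arrays. TotB, a stress-induced Turandot gene and the only one of 7 listed that was measured, had 8.3, 4.4 and 5.3 on the mated arrays and 19.2, 41.6 and 10.1 on the unmated arrays. Its groups did not overlap, as for 10.9% of all probe sets, but it did not pass (limma adjusted p 0.674). TotB was under the array's lower quartile on 5 of the 6 arrays, all but unmated array 2. All its mated values were under 14.2, the lowest of the arrays' lower quartiles.

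Phagocytosis receptors, which bind microbes or dying cells for uptake, were set beside the measured genes. Of 11 listed receptors 10 were measured, of which 2 had a higher and 8 a lower mean in mated oviducts. A lower mean was also found for 62.7% of all probe sets. None of the receptors passed, and their median log2 difference of -0.10 was close to the -0.16 of all genes. Dscam1, an immunoglobulin-domain receptor, had 118.8, 129.1 and 31.7 on the mated arrays, against 128.6, 214.8 and 168.3 on the unmated arrays. The Nimrod receptor gene NimC2 had a log2 difference of -0.62 ± 0.46, and the scavenger receptor gene Sr-CII one of 0.71 ± 0.77 on dim values (SE, n = 3 per group).

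Because Teps are also made by haemocytes and fat body, markers of those cells were set beside them. In bulk tissue, fewer cells of a type and less RNA per cell cannot be told apart. All 8 measured haemocyte markers had a lower mean in mated oviducts, as did 62.7% of all probe sets. At an unadjusted p of 0.05, 2 of the 8 (PPO1 and the dim ItgaPS4) were lower, against 5.56% of all probe sets. Of the 8 markers, 0 passed the adjusted test. Their median log2 difference was -0.38, beside -0.16 for all genes, and NimC1, eater and Pxn lay close to that all-gene value or above it, at -0.03, -0.14 and -0.17. Their summed intensity ran from 7402 to 9597 on the mated arrays and from 8742.2 to 10953.7 on the unmated arrays. Pxn, which encodes peroxidasin and is also made outside haemocytes, gave most of it. The haemolectin gene Hml had 237.4, 318.4 and 218.3 on the mated arrays, against 367.8, 264.3 and 347.7 on the unmated arrays. PPO1 and PPO2 had log2 differences of -1.41 ± 0.59 and -1.21 ± 0.53 (SE, n = 3 per group). ItgaPS4 had 3.6, 6 and 3.4 on the mated arrays and 9.8, 24.6 and 14.5 on the unmated arrays, under the array's lower quartile on 5 of the 6, so no exact fold is given for it.

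Of 6 measured fat body markers, 1 was higher and 5 were lower in mated oviducts, where 62.7% of all probe sets were lower. Of the 6, 0 passed the adjusted test, and the median log2 difference was -0.39. Their summed intensity ran from 883.5 to 948.3 on the mated and from 768.5 to 1623.2 on the unmated arrays. Lsd-1 and Lsp2 had log2 differences of -0.50 ± 0.39 and -0.47 ± 0.36 (SE, n = 3 per group). AkhR was under the array's lower quartile on 5 of the 6 arrays, with 14, 14 and 2.3 on the mated and 16.2, 5.3 and 18.9 on the unmated arrays. Of the other markers of haemocytes and fat body, lz was under that quartile on 4 arrays and Fbp2 on 6. Their part in the levels of Tep3, Tep4, GNBP2 and GNBP3 was not tested.

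The tissue label was set beside further markers. Of 5 listed oviduct epithelium markers 3 were measured, and Oamb and Fas3 had no probe set. The octopamine receptor gene Octbeta2R is expressed by the oviduct epithelium. It had 653, 242.9 and 378.6 on the mated and 318, 245.9 and 405.3 on the unmated arrays. The cadherin gene shg and Gli had log2 differences of 0.34 ± 0.34 and -0.58 ± 0.49 (SE, n = 3 per group). The markers of muscle, which sheathes the oviduct, had summed intensities from 39262.3 to 51758.4 on the mated and from 34469.6 to 51368.8 on the unmated arrays. The muscle genes sls, up and Tm2 had log2 differences of 0.72 ± 0.43, 0.54 ± 0.41 and -0.08 ± 0.41. The measured markers of neighbouring organs had lower means in mated oviducts. This held for 11 of 11 of ovary and eggshell and 7 of 7 of midgut and Malpighian tubule. Of all probe sets, 62.7% had a lower mean. The median log2 differences of the 2 lists were -1.54 and -1.97. At an unadjusted p of 0.05, 6 of the 11 and 4 of the 7 were lower, against 5.56% of all probe sets, and 0 of either list passed the adjusted test. The ovary and eggshell intensities summed to 12595.8, 13050.5 and 3088.7 on unmated arrays 1, 2 and 3, against 1725.9 to 4751.6 on mated arrays. For midgut and Malpighian tubule the sums were 2920.2, 3468.8 and 632.7, against 347.1 to 651.8. In both lists only unmated arrays 1 and 2 exceeded the mated range. The eggshell gene Cp38 had 65.8, 115.6 and 38.1 on the mated arrays, against 1260.5, 611.4 and 101.5 on the unmated arrays. Cp18 had 563.6, 405.5 and 361.9 against 1053.1, 1351.9 and 624.7, so there unmated array 3 was also above all mated arrays. The gut gene betaTry had 37.9, 32.9 and 23.1 on the mated arrays, against 537.1, 962.7 and 36.6 on the unmated arrays. The betaTry difference thus came from unmated arrays 1 and 2. On those 2 arrays Tep3 was at 130.3 and 321.4, against 162.7 on unmated array 3. GNBP3 was at 14.5 and 65.1, against 17.7, and GNBP2 at 8.2 and 11.3, against 10.2. Tep4 was at 17640.3 and 19483.9, against 20106.4. Any part of neighbouring organs in these values was not tested.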

How the data were processed

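The deposited table held 14010 probe sets on 6 arrays, 3 mated and 3 unmated. Its values are intensities on a linear scale, from 0.2 to 30276.7, as deposited by the authors. RMA is named, with no version, per the submitters' processing notes, yet the values are not on a log2 scale and the mean of the middle 96% is about 250 on each array. The authors' exact summary is not given in the sources used here. The 44 control probe sets were left out.

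Of 13966 probe sets, 12443 had 1 gene, 327 had several and 1196 had none in the platform annotation. Symbols were updated or kept for 12394 through Entrez identifiers against RefSeq (Release 6 plus ISO1 MT), used for names and gene order only. Where a gene had several probe sets, the brightest by mean log2 stood for it.

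The log2 intensities were compared with limma's two-sided moderated test (version 3.58.1, R 4.3.3), with no filter or further normalization, and Benjamini-Hochberg adjustment over all 13966 probe sets. Exact permutation tests used scipy 1.17.1. All 7 genes, up to 3 genes of each list by smallest p, and for each measured gene the 2 most correlated brighter genes (mean log2 at or above the median of genes) are named. Hml, Pxn, NimC1, eater, lz and Fbp2 among the markers were named after their values had been seen, and likewise the probe sets tied to Tep2. The members and lists were chosen with earlier results of these data known. The precision is limited by the number of arrays. Alternatives covered normalization, low values, variance model, pairing and each array left out.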

Additional observations from a re-analysis of the deposited data

How the results depend on the processing

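The adjusted threshold of 0.05 in limma was passed by 0 probe sets with the deposited scaling and under each of the 15 alternative fits, and 0 at 0.01. The count at an unadjusted p of 0.05 was 921, and ran from 324 to 2020 over the alternatives, being 1965 with array weights, 595 when mated array 3 and 560 when unmated array 1 was left out, 2020 in the absence of unmated array 3 and 324 among probe sets at or above the median level, where fewer were tested. Tep3 and GNBP2 stayed higher and GNBP3 lower in every alternative in which they were tested, with log2 differences from 0.71 to 1.50, from 0.41 to 1.61 and from -1.19 to -0.11, and none passed the adjusted threshold. GNBP2 and GNBP3 fell under the median level and were not tested in that alternative. Tep4 ran from -0.03 after cyclic loess to 0.39 after median centring. The cause of the change of sign was not tested. The median of the 4 genes ran from 0.27 with an offset of 32 to 0.82. With the replicate block it was 0.55, and the block gave 0 calls. The labels state no pairing, and the main fit was planned without it. Arrays of the same number did not deviate together (r of -0.404, -0.109 and -0.299 for numbers 1, 2 and 3). Mated and unmated arrays of different numbers had r from -0.222 to 0.449, the highest for mated array 1 with unmated array 3. Each measured gene has 1 probe set, so the mean over probe sets changed nothing. The count of genes with a higher mated mean was 2 of 4 after cyclic loess, against 3 of 4 with the deposited scaling. It was 2 of the 2 tested among probe sets at or above the median level, and 3 of 4 in every other alternative fit. This count under the alternatives was added after the values had been seen. Dim signals limit GNBP2 and GNBP3.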
